A study of Mus musculus with 12 samples.

Results

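Integrins and the proteins that couple them to the actin cytoskeleton are encoded by the 37 mouse genes described here, 12 integrin alpha chains, 7 integrin beta chains and 18 genes of the focal adhesion plaque. The genes were chosen by name, and every ATAC-seq peak overlapping a gene body or the 20 kb on either side of it was taken. Peaks of 7 lists that overlapped were merged into loci. The members held 718 of the 147985 loci in the series, and 105084 loci lay at the 21938 protein-coding genes treated the same way. Of the 718 member loci, 636 were distal and 82 were promoter loci, no more than 1000 bp away from where a protein-coding transcript starts (its TSS), 50 of them at a member's own TSS and 32 at the TSS of another gene. Only 3 loci fell in the windows of more than 1 member.

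ATAC-seq, in which the Tn5 transposase cuts accessible DNA, was applied to mouse embryonic fibroblasts (MEFs) immortalized with pairs of factors. The question of the study was why some such lines can be reprogrammed to pluripotency and others cannot. The study describes Hdac7SA.Mef2d cells as reprogrammable, Hras.E1A cells as reprogrammable only under MEK inhibition and Hras.Myc cells as resistant. The 12 libraries gave 7 peak lists, 1 per group, with replicates pooled, so values below are counts of loci per list without a spread between replicates. Hdac7SA.Mef2d cells were untreated and carried the transcription factor Mef2d with Hdac7SA, a form of the histone deacetylase Hdac7 whose serines were replaced by alanine to block its export from the nucleus. Hras.E1A+PD and Hras.Myc+PD cells had received PD, the MEK inhibitor PD0325901, for 2 days, and Hras.E1A+TSA and Hras.Myc+TSA cells the histone deacetylase inhibitor TSA for 2 days. Both Hras lines, treated or not, carried oncogenic Hras, together with the adenoviral protein E1A in Hras.E1A and with the transcription factor Myc in Hras.Myc. The TSA groups had 1 library each and the other 5 groups had 2, each made from about 50000 cells. The MEFs came from embryos at day 13.5 and, once immortalized, had been passaged for at least 1 month. The labels name OG2 MEFs as the cell line, while the growth protocol in the labels names wildtype ICR MEFs. The factors were transgenes shared by the treated and untreated cells of a line, and wildtype MEFs were not analysed here. Of 9 fibroblast marker genes, 6 to 9 had an open promoter in each list, no blood marker of 5 had one in any list, and 3 or 4 of 4 epithelial markers had one in every list. Endothelial marker promoters were open for 2 of 3 genes in Hdac7SA.Mef2d and for 0 to 2 of 3 in the Hras lists. The part of these differences in the results below was not tested.

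Integrins are pairs of an alpha and a beta chain that span the membrane and bind the extracellular matrix. Inside the cell talins and kindlins bind the beta chain and switch the pair on, vinculin and the actinins tie it to actin, and paxillin, tensins, Lpp and zyxin build the plaque around it. Focal adhesion kinase and Src signal from this plaque, in part through the Ras and MEK pathway that PD blocks. Fibroblasts are among the cells with the most prominent focal adhesions. AP-1, the family of Fos and Jun proteins, is a well-known nuclear target of MEK signalling, and TEAD proteins act with the mechanosensitive coactivators Yap and Taz.

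The sequences that the comparisons turn on are the distal loci that closed with PD in both Hras lines and hold the AP-1 site TGACTCA on either strand, and the distal loci that opened with PD in both lines. Loci with a peak in the untreated list but not after treatment are called closed, those with a peak only after treatment opened, and those with a peak in both kept. For each of the 6 members with the highest-scoring such closed locus in untreated Hras.E1A, 101 bases around the site nearest to the locus centre are printed from RefSeq's copy of the GRCm38 (mm10) assembly, plus strand, with AP-1 sites in capitals. The Itgb3 and Vcl loci overlap coding exons, those of Ptk2 and Itga8 lie in introns 3 and 23, that of Actn1 lies upstream and that of Src downstream of the gene.
Itgb3, chr11:104641001-104641101: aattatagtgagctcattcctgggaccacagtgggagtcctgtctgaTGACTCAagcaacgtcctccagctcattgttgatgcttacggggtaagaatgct
Actn1, chr12:80277568-80277668: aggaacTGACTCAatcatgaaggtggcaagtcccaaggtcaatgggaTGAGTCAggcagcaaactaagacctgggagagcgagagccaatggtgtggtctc
Vcl, chr14:20985625-20985725: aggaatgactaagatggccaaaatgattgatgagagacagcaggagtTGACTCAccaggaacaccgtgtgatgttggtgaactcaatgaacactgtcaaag
Src, chr2:157486759-157486859: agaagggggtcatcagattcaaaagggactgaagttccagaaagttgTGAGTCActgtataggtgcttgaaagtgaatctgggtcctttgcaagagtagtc
Ptk2, chr15:73338943-73339043: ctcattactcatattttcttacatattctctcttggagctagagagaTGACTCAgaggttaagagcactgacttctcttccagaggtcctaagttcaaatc
Itga8, chr2:12170375-12170475: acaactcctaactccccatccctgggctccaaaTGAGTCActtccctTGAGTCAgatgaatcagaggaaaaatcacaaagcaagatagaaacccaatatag

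For the distal loci opened with PD in both lines, 4 members are shown in the same way, with matches to the TEAD motif GGAATG (either strand) in capitals. The Tns3 locus lies upstream of the gene, and those of Actn1, Tln2 and Itga11 lie in introns 2, 8 and 2. The Tln2 locus holds no such match, and the bases around its centre are given.
Tns3, chr11:8674955-8675055: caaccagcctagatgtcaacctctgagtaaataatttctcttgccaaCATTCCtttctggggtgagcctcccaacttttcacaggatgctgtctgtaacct
Actn1, chr12:80208565-80208665: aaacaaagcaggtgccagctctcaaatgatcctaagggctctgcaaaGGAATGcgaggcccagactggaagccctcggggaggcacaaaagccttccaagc
Tln2, chr9:67380211-67380311: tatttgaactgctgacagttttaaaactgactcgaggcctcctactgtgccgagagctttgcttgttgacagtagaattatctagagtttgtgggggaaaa
Itga11, chr9:62725520-62725620: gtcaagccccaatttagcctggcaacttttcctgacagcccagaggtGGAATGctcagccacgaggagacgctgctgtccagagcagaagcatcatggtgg

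The number of loci per member ran between 6 at Zyx and 76 at Lpp, with a median of 16, against a median of 6 over all protein-coding genes. Windows were also longer, with a median of 117.7 kb at the members and 57.4 kb at all protein-coding genes, and per 100 kb of window the medians were 13.1 loci at the members and 8.42 at all protein-coding genes. Lpp, a LIM-domain scaffold gene of 599072 bp, was followed by the tensin genes Tns3 with 49 loci and Tns1 with 46. Of the 636 distal loci, 432 lay in introns, 120 of them in intron 1, 85 upstream, 76 downstream, 34 on coding exons and 9 on untranslated exons. A member's TSS was the nearest protein-coding TSS for 503 of the 636.

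Hdac7SA.Mef2d cells had the most open distal loci at the members, as they had over all protein-coding genes. Of the 636 distal loci, 497 were open in Hdac7SA.Mef2d, against 354 and 305 in the untreated Hras.E1A and Hras.Myc lists. These were 78.1%, 55.7% and 48%, beside 77.3%, 54% and 45.1% of distal loci at all protein-coding genes. With PD 252 were open in Hras.E1A+PD and 257 in Hras.Myc+PD, and with TSA 326 in Hras.E1A+TSA and 311 in Hras.Myc+TSA. The PD shares were 39.6% and 40.4%, beside 37% and 34.6% over all protein-coding genes. The TSA shares were 51.3% and 48.9%, beside 52.7% and 47.4%. Of the 7 lists only Hras.Myc+PD had an interval (36.6 to 44.3) that did not include its background. The whole lists differed in size as well, with 119251 peaks for Hdac7SA.Mef2d and between 56774 for Hras.Myc+PD and 81201 for untreated Hras.E1A among the Hras lists. The Hras.E1A+PD list had 59823 peaks and that of untreated Hras.Myc 67738, and sequencing depth is unknown. When each list was cut to the length of the shortest, 226 distal loci were open in Hras.E1A+PD, against 197 in untreated Hras.E1A, and 257 in Hras.Myc+PD, against 231 in untreated Hras.Myc. Distal loci over all protein-coding genes went the other way at this length. There 30687 were open in Hras.E1A+PD, against 31848 in untreated Hras.E1A, and 30441 in Hras.Myc+PD, against 32592 in untreated Hras.Myc. The total for Hdac7SA.Mef2d was not counted at this length, so its lead rests on the longest list. In the deposited lists promoter loci varied far less, with 71 to 73 of 82 open in every list. At equal length 67 were open in Hras.E1A+PD, against 51 in untreated Hras.E1A, and 72 in Hras.Myc+PD, against 59 in untreated Hras.Myc. Promoter loci over all protein-coding genes changed in the same direction, with 13910 against 10900 in Hras.E1A and 14046 against 12366 in Hras.Myc. All 7 lists shared 111 of the 636 distal loci (17.5%), beside 15.5% over all protein-coding genes, and 64 of the 82 promoter loci (78%), beside 71.9%. At equal length they shared 5.5% of the distal loci, beside 7.25%, and 36.6% of the promoter loci, beside 36%. The most frequent pattern among distal loci was a peak in Hdac7SA.Mef2d alone, at 134 loci or 21.1%, beside 22.7% of distal loci at all protein-coding genes.

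**Figure D1:**
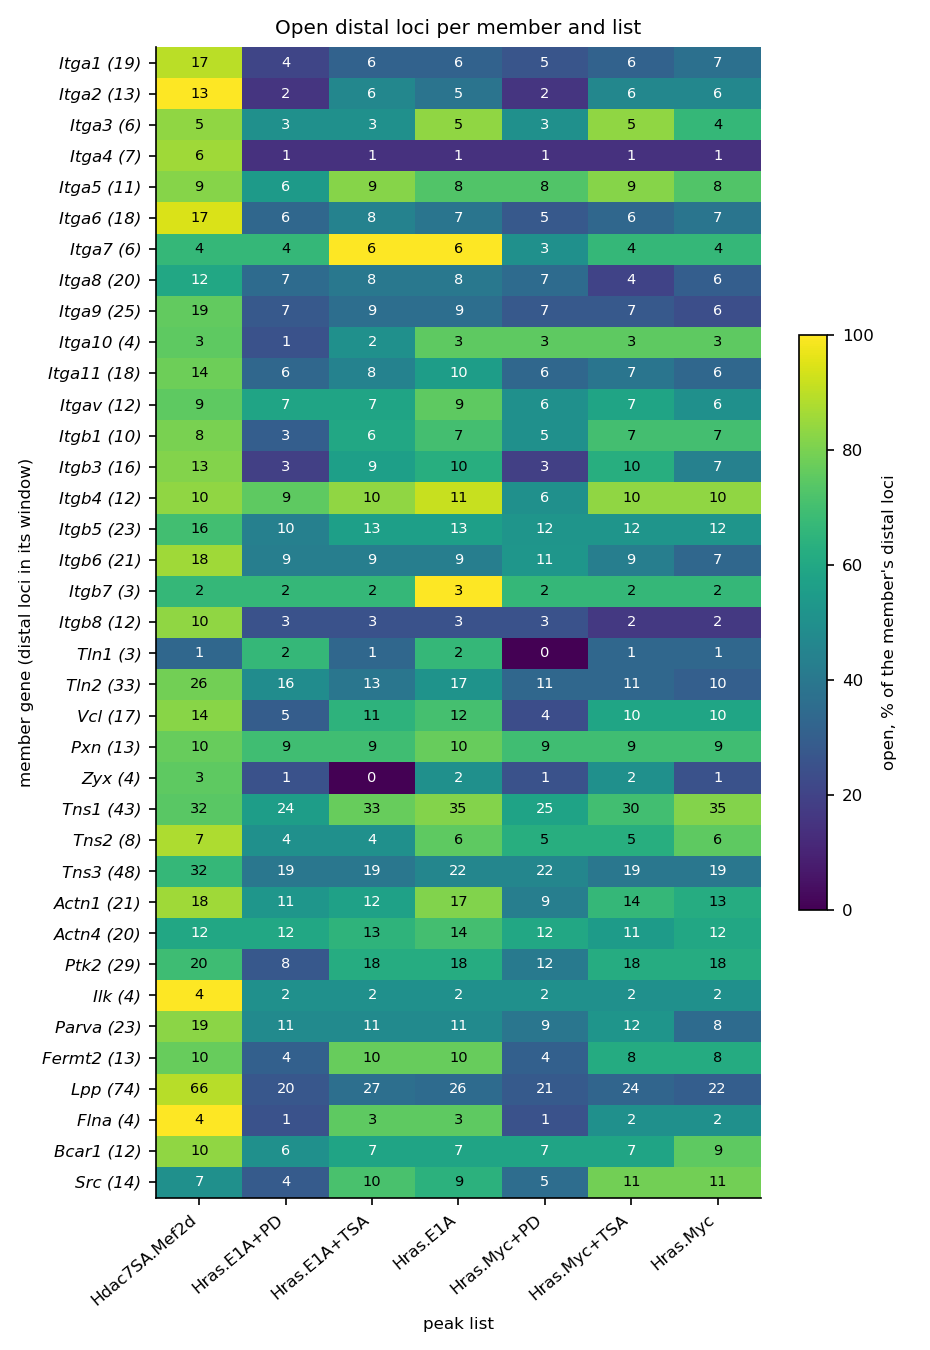
Number of open distal loci at each of the 37 members (rows, with the number of distal loci in parentheses) in each of the 7 peak lists (columns), coloured by the percent of the member's distal loci that were open. Lpp had 66 of its 74 distal loci open in Hdac7SA.Mef2d and 20 to 27 in the Hras lists, while Tns1 had 32 of 43 open in Hdac7SA.Mef2d and 35 in each untreated Hras line.

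The distal loci that set Hdac7SA.Mef2d apart from the untreated Hras lines were spread unevenly over the members. Of 497 distal loci open in Hdac7SA.Mef2d, 210 (42.3%, exact binomial 95% interval 37.9 to 46.7) were open in neither untreated Hras.E1A nor untreated Hras.Myc, beside 43% over all protein-coding genes, so the members as a whole lay at the background. By family the share was 57% (45.3 to 68.1) for the LIM-domain scaffolds Pxn, Zyx and Lpp and 53.6% (44.5 to 62.6) for the integrin alpha chains, against 23.5% (10.7 to 41.2) for the actin crosslinkers Actn1, Actn4 and Flna, 24.3% (11.8 to 41.2) for Ptk2, Src and Bcar1 and 28.2% (18.1 to 40.1) for the tensins. None of these 5 intervals included 43%, but each reached it once a single gene was left out, a check added after the values were seen. Lpp alone held 40 of the 45 such loci of the LIM-domain scaffolds, and without it their share was 38.5% (13.9 to 68.4). The alpha chains had 50.5% (40.8 to 60.1) without Itga1. The tensins went opposite ways, with 16 of 32 at Tns3 and 2 of 32 at Tns1, and had 46.2% (30.1 to 62.8) without Tns1 and 10.3% (2.87 to 24.2) without Tns3. The intervals cover counting error only. Next to Lpp and Tns3, Tln2 carried 13 of these loci and Itga1 12. Itga7, a laminin-binding alpha chain known from muscle, and Itgb7 carried none.

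Single members show the range, and the alpha chains were not alike. At Itga4, the alpha chain of the fibronectin and Vcam1 receptor, 6 of 7 distal loci were open in Hdac7SA.Mef2d, against 1 in each untreated Hras line. At Itga2, which pairs with Itgb1 to bind collagen, 13 of 13 were open in Hdac7SA.Mef2d, against 5 and 6 in untreated Hras.E1A and Hras.Myc. At Itga6, a laminin receptor chain, the counts were 17 of 18 in Hdac7SA.Mef2d, against 7 in each untreated Hras line. Itga1 had 17 of 19 open in Hdac7SA.Mef2d, against 6 and 7, and Itga9 had 19 of 25, against 9 and 6. Itga8 had 12 of 20, against 8 and 6, and Itga11 14 of 18, against 10 and 6. The remaining alpha chains had no such lead, and Itga10 had 3 open distal loci in each of these lists. In Hdac7SA.Mef2d, untreated Hras.E1A and untreated Hras.Myc, Itga7 had 4, 6 and 4 open distal loci and Itgav 9, 9 and 6. Itga3 had 5, 5 and 4 and Itga5 9, 8 and 8. Src ran the other way, with 7 of 14 distal loci open in Hdac7SA.Mef2d, against 9 and 11 in untreated Hras.E1A and Hras.Myc. Of distal loci open in an untreated Hras line, 78 of 354 in Hras.E1A and 71 of 305 in Hras.Myc had no peak in Hdac7SA.Mef2d (22% and 23.3%), beside 22.4% and 25.4% over all protein-coding genes.

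Own promoters were open in every list for 32 of the 37 members, among them Itgb1, the common beta chain of fibroblast integrins, Itga5 and Itgav of the fibronectin and vitronectin receptors, the talin gene Tln1, Vcl, Pxn, Zyx, Ilk, Fermt2, Ptk2 and Src. The 5 exceptions were Itgb4, Itgb6, Itgb7, Tln2 and Tns2. This count holds for the deposited lists and was not made over all protein-coding genes. With lists of equal size only 30 of the 82 promoter loci (36.6%) were open in all 7 lists, beside 36% over all protein-coding genes. The Itgb6 promoter, of a beta chain known from epithelia that binds latent TGF-beta, was open in Hdac7SA.Mef2d, where its peak ranked at percentile 42.9 of that list by the authors' score, and had no peak in any of the 6 Hras lists. An intronic promoter of Tln2, the less widespread talin, was open in all 6 Hras lists at percentiles 14.5 to 22.8 and had no peak in Hdac7SA.Mef2d. The single promoter locus of Tns2 was open in Hras.Myc+PD alone, at percentile 19.4. All of these peaks ranked in the lower part of their lists, since percentile 100 is the strongest peak.

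The TSS of Itgb4, the beta chain of the hemidesmosomal integrin, was open at percentile 26.1 in Hdac7SA.Mef2d, 15.3 in Hras.E1A+PD, 4.7 in Hras.E1A+TSA, 23.0 in Hras.Myc+PD and 0.4 in untreated Hras.Myc, and had no peak in untreated Hras.E1A or in Hras.Myc+TSA. In untreated Hras.Myc it sat at the very floor of the list, so its state there rests on a peak near the lower limit of the scores. Itgb7, a beta chain known from lymphocytes, had 3 promoter loci. None was open in Hras.E1A+PD, against 3 in untreated Hras.E1A, and 2 were open in Hras.Myc+PD, against 3 in untreated Hras.Myc. The locus 1046 bp before the gene start ranked at percentile 89.2 in Hdac7SA.Mef2d, 39.1 and 6.5 in the untreated Hras.E1A and Hras.Myc lists. Among the untreated lists it was thus a strong peak in Hdac7SA.Mef2d only.

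Promoter loci changed with PD in small numbers. In Hras.E1A+PD, 6 of 73 promoter loci open in untreated Hras.E1A were closed (8.22%, 3.08 to 17), beside 6.98% over all protein-coding genes, and 4 of the 71 open with PD were opened (5.63%, 1.56 to 13.8), beside 3.52%. In Hras.Myc+PD, 2 of 72 were closed (2.78%, 0.338 to 9.68), beside 7.16%, and 2 of 72 were opened (2.78%), beside 4.49%. All 4 shares had intervals that included their background. The closed share of members in Hras.Myc+PD was 8.33% (7 of 84) with promoters defined within 2500 bp of a TSS and 8.77% (5 of 57) without the 20% weakest peaks. With lists of equal size, each cut to its 56774 highest-scoring peaks, the length of the shortest list, the promoter shares opened were larger, 26.9% in Hras.E1A+PD and 18.1% in Hras.Myc+PD, beside 24.5% and 16.1% over all protein-coding genes. Of the 6 closed in Hras.E1A+PD, 3 were those of Itgb7, 1 was an alternative promoter of Tns1 ranked at percentile 3.7 in untreated Hras.E1A, and the other two were promoters of the neighbouring genes Rarg and Zfp385a. Loci opened at a member's own TSS were those of Itga3, Itgb4 and Flna in Hras.E1A+PD and of Itga5 and Tns2 in Hras.Myc+PD. The Itga3, Flna and Itga5 peaks ranked at percentiles 1.8, 0.3 and 5.5, near the bottom of their lists.

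Distal loci closed with PD far more often than promoter loci did, at about the rate of the genome. In Hras.E1A+PD 158 of 354 distal member loci were closed (44.6%, 39.4 to 50), beside 44.6% over all protein-coding genes. In Hras.Myc+PD 130 of 305 were closed (42.6%, 37 to 48.4), beside 46.1%. Opened loci made up 56 of the 252 distal loci open in Hras.E1A+PD (22.2%, 17.2 to 27.9), beside 19.2%, and 82 of the 257 open in Hras.Myc+PD (31.9%, 26.3 to 38), beside 29.7%. All 4 intervals included their background, and what follows concerns differences among the members. In lists of equal size the opened share was 48.7% (42 to 55.4) in Hras.E1A+PD and 47.5% (41.2 to 53.8) in Hras.Myc+PD, beside 39.2% and 40.3% over all protein-coding genes, so both intervals then lay above the background. The cut takes the weakest peaks from the longer untreated lists, and a locus that loses its untreated peak in this way counts as opened. Opened distal member loci thus numbered 110 in Hras.E1A+PD at equal length, against 56 in the deposited lists. The part of the cut in the excess over the background was not tested. The closed shares of 41.1% and 41.6% still included theirs, 41.4% and 44.2%. Closed loci lay in gene bodies at 115 of 257 loci that were open in Hras.E1A before PD and at 88 of 213 in Hras.Myc, upstream at 20 of 52 and 22 of 51, and downstream at 23 of 45 and 20 of 41. At least 1 distal peak was lost at 35 of 37 members in Hras.E1A+PD and at 34 of 37 in Hras.Myc+PD. This count was not made over all protein-coding genes, which had a median of 6 loci each, against 16 at the members.

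By role, the closed distal share in Hras.E1A+PD was lowest for the tensins (38.1%, 26.1 to 51.2) and the actin crosslinkers (38.2%, 22.2 to 56.4). It was highest for Ptk2, Src and Bcar1 (52.9%, 35.1 to 70.2) and the LIM-domain scaffolds (52.6%, 35.8 to 69). In Hras.Myc+PD the 7 families lay closer together, between 38.3% (24.5 to 53.6) for the integrin beta chains and 46.2% (30.1 to 62.8) for the linkers Tln1, Tln2, Vcl, Ilk, Parva and Fermt2. All of these intervals overlapped. The families differed more in opened loci, where Ptk2, Src and Bcar1 had 2 opened of 18 open in Hras.E1A+PD and 3 of 24 in Hras.Myc+PD (12.5%, 2.66 to 32.4), while the LIM-domain scaffolds had 12 of 30 (40%, 22.7 to 59.4) and 13 of 31 (41.9%, 24.5 to 60.9). These intervals overlapped as well.

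The 6 members with the most closed minus opened loci, ties being broken by the number of loci, were the same in both lines but for 1. In Hras.E1A+PD these were Tns1 with a net change of -12 loci, the focal adhesion kinase gene Ptk2 with -10, Vcl and Itgb3 with -7 each and Lpp and Actn1 with -6 each, as had Fermt2. In Hras.Myc+PD they were Tns1 with -10, Ptk2, Vcl and Src with -6 each and Actn1 and Itgb3 with -4 each, as had Itga2, Itgb4 and Fermt2. A net loss was counted at 30 members in Hras.E1A+PD and at 19 in Hras.Myc+PD, with 17 in both. Neither net losses nor net gains were counted gene by gene over all protein-coding genes, and the PD lists were shorter as a whole. Net gains numbered 0 in Hras.E1A+PD and 7 in Hras.Myc+PD, led by Itgb6 with 4 and Tns3 with 3, followed by Tln2, Itga9, Parva, Itga8 and Itgb8 with 1 each.

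**Figure D2:**
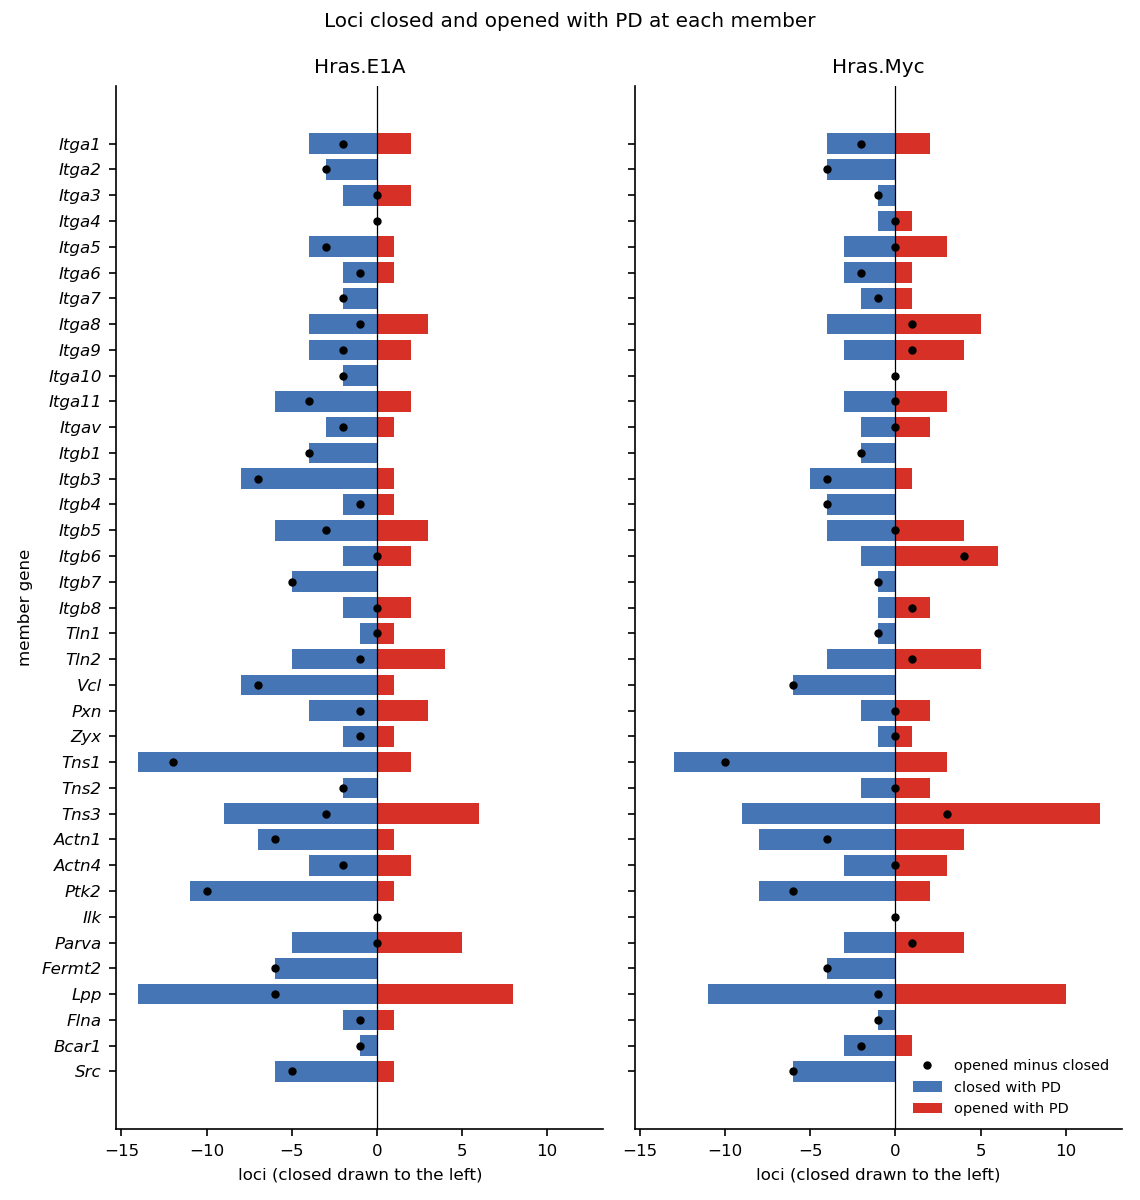
Loci closed (bars to the left) and opened (bars to the right) with PD at each of the 37 members, with the difference as a dot, in Hras.E1A (left panel) and Hras.Myc (right panel), promoter loci included. The bars of Tns1 reach 14 closed and 2 opened loci in Hras.E1A and 13 and 3 in Hras.Myc. Ilk has no changed locus in either line.

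The direction of these sums depended on the length of the lists, which were shortest for Hras.E1A+PD and Hras.Myc+PD. With lists of equal size, a net loss was left at 6 members in Hras.E1A+PD and at 5 in Hras.Myc+PD, and net gains numbered 21 and 23. These counts too were made for the members only. Tns1 then changed by 6 loci in Hras.E1A+PD and by 2 in Hras.Myc+PD, both gains, and Actn1 by 4 and 0. Only Itga2, Itgb3 and Vcl had a net loss in both lines under either list length. Vcl changed by -4 and -6 loci with lists of equal size, Itgb3 by -1 and -3 and Itga2 by -1 and -3. Fermt2, a kindlin gene, had -4 in Hras.Myc+PD with both list lengths, and in Hras.E1A+PD -6 in the full lists and 0 with lists of equal size. Itgb6 kept 4 net opened loci in Hras.Myc+PD and Tns3 reached 7.

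**Figure D3:**
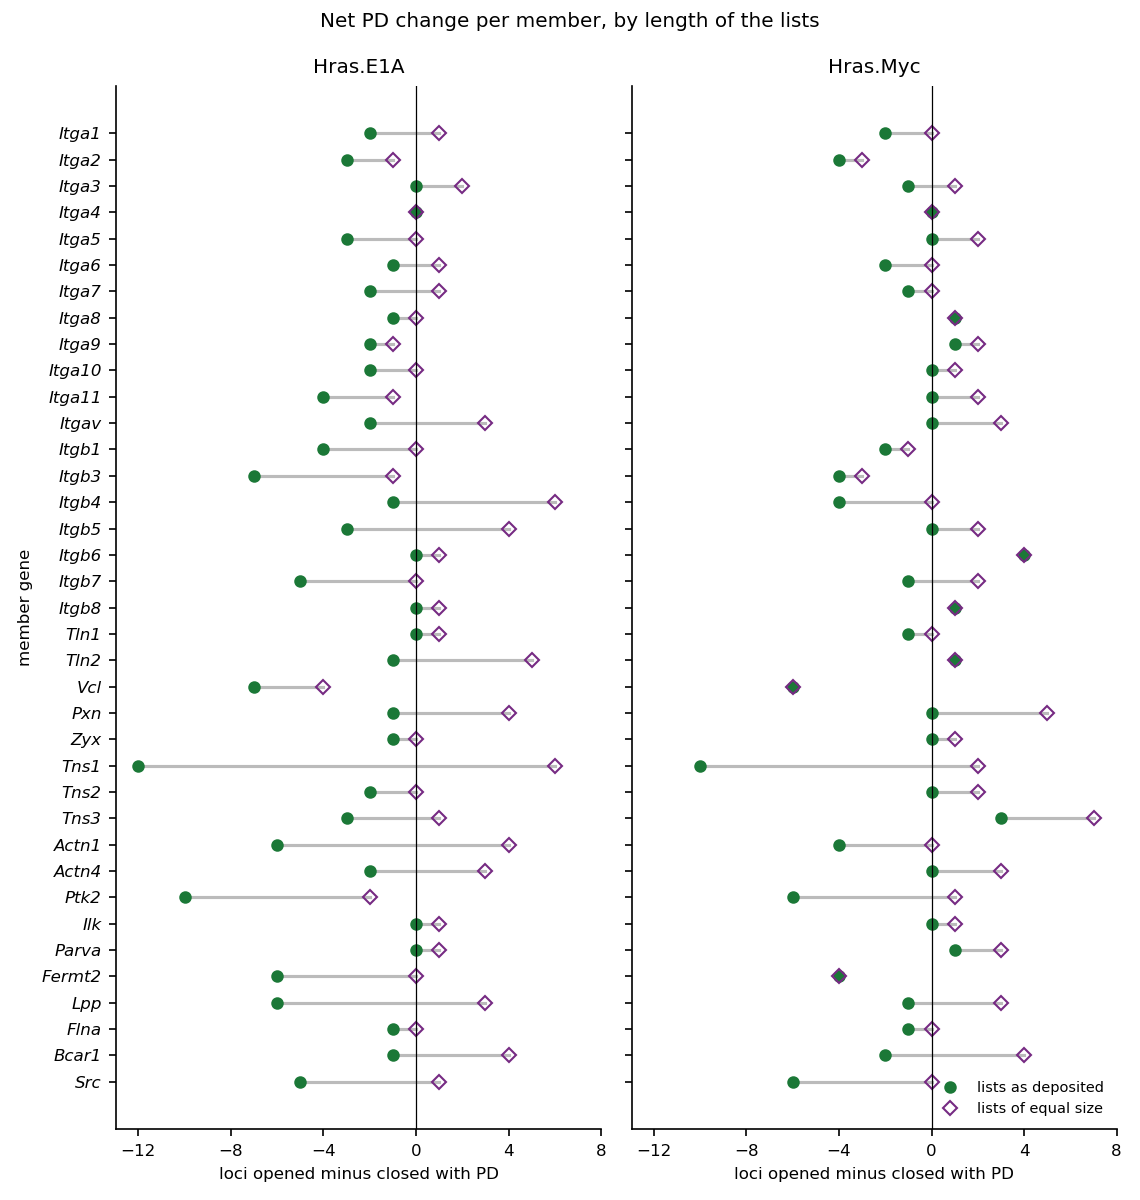
Loci opened minus loci closed with PD at each of the 37 members in Hras.E1A (left) and Hras.Myc (right), for the lists as deposited (filled circles) and for lists cut to the 56774 strongest peaks each (open diamonds). Most members lie left of 0 with the deposited lists and at or right of 0 with lists of equal size, while Vcl, Itgb3 and Itga2 stay left of 0 in both panels.

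Vcl encodes vinculin, which binds talin and actin where force is transmitted. It had 5 of 17 distal loci open in Hras.E1A+PD, against 12 in untreated Hras.E1A, and 4 in Hras.Myc+PD, against 10 in untreated Hras.Myc. TSA left 11 and 10 of them open in Hras.E1A+TSA and Hras.Myc+TSA. Of the loci lost with PD, 5 were lost in both lines. The strongest was a locus 14788 bp before the gene start without an AP-1 site, which had no peak with PD and ranked at percentile 99.2 in each untreated Hras line and 97.4 in Hdac7SA.Mef2d. The coding-exon locus printed above also had no peak with PD and ranked at 96.2 and 82.8 in the untreated Hras.E1A and Hras.Myc lists. Among the 5 were also 2 weaker loci in introns 1 and 2 that hold an AP-1 site. The promoter of Vcl kept its peak, at percentile 67.0 in Hras.E1A+PD, against 76.8 in untreated Hras.E1A, and 91.4 in Hras.Myc+PD, against 80.8 in untreated Hras.Myc.

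Itgb3, the beta chain that with Itgav binds vitronectin and other ligands, had 3 of 16 distal loci open in Hras.E1A+PD, against 10 in untreated Hras.E1A, and 3 in Hras.Myc+PD, against 7 in untreated Hras.Myc. TSA ran opposite to PD in Hras.Myc, with 10 open in Hras.Myc+TSA. Its coding-exon locus, 33089 bp into the gene, lacked a peak with PD in both lines, and ranked at percentile 98.5 in untreated Hras.E1A, 95.2 in untreated Hras.Myc and 97.6 in Hdac7SA.Mef2d, among the strongest peaks of those lists. The remaining closed loci ranked lower, between percentiles 1.2 and 64.0 in untreated Hras.E1A. A single intron 2 locus opened in both lines, at percentile 21.3 in Hras.E1A+PD and 41.5 in Hras.Myc+PD. The Itgb3 promoter stayed open in all 7 lists at percentiles 47.4 to 73.7.

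Itga2 had 2 of 13 distal loci open in Hras.E1A+PD, against 5 in untreated Hras.E1A, and 2 in Hras.Myc+PD, against 6 in untreated Hras.Myc. The 3 loci closed in both lines, in intron 1 and at 1694 and 13901 bp before the gene start, all hold an AP-1 site and all had a peak in Hdac7SA.Mef2d. No locus of Itga2 opened with PD. Its own promoter stayed open in all 7 lists.

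Ptk2, whose product is activated when integrins bind matrix, had 8 of 29 distal loci open in Hras.E1A+PD, against 18 in untreated Hras.E1A, and 12 in Hras.Myc+PD, against 18 in untreated Hras.Myc. Both TSA lists held 18. The intron 3 locus printed above had no peak with PD and ranked at percentiles 88.3 and 97.9 in the untreated Hras.E1A and Hras.Myc lists. Of 11 and 8 distal loci closed in Hras.E1A+PD and Hras.Myc+PD, 6 were shared and 4 in each line held an AP-1 site. Src, the kinase that partners Ptk2 at adhesions, had 4 of 14 distal loci open in Hras.E1A+PD, against 9 in untreated Hras.E1A, and 5 in Hras.Myc+PD, against 11 in untreated Hras.Myc. The net change of Ptk2 with lists of equal size was -2 in Hras.E1A+PD and 1 in Hras.Myc+PD, and that of Src 1 and 0. Bcar1, which encodes the adaptor Cas phosphorylated by both kinases, changed by -1 and -2 in the full lists.

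Tns1, a tensin that tethers integrins to actin, had 24 of 43 distal loci open in Hras.E1A+PD, against 35 in untreated Hras.E1A, and 25 in Hras.Myc+PD, against 35 in untreated Hras.Myc. Its closed share of 37.1% in each line was below that of all distal loci, and its large net loss came with many open loci. In each line 13 distal loci closed, 8 of them in both. Tns3 had 19 of 48 open in Hras.E1A+PD, against 22 in untreated Hras.E1A, and 22 in Hras.Myc+PD, against 19 in untreated Hras.Myc. The same number of distal loci, 9, closed in each line, but 6 opened in Hras.E1A+PD and 12 in Hras.Myc+PD. The Tns3 locus printed above, 10471 bp before the gene start, had no peak in either untreated Hras line and ranked at percentile 90.7 in Hras.E1A+PD, 84.0 in Hras.Myc+PD and 85.6 in Hdac7SA.Mef2d. Tns2 lost 2 distal loci in each line.

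**Figure D4:**
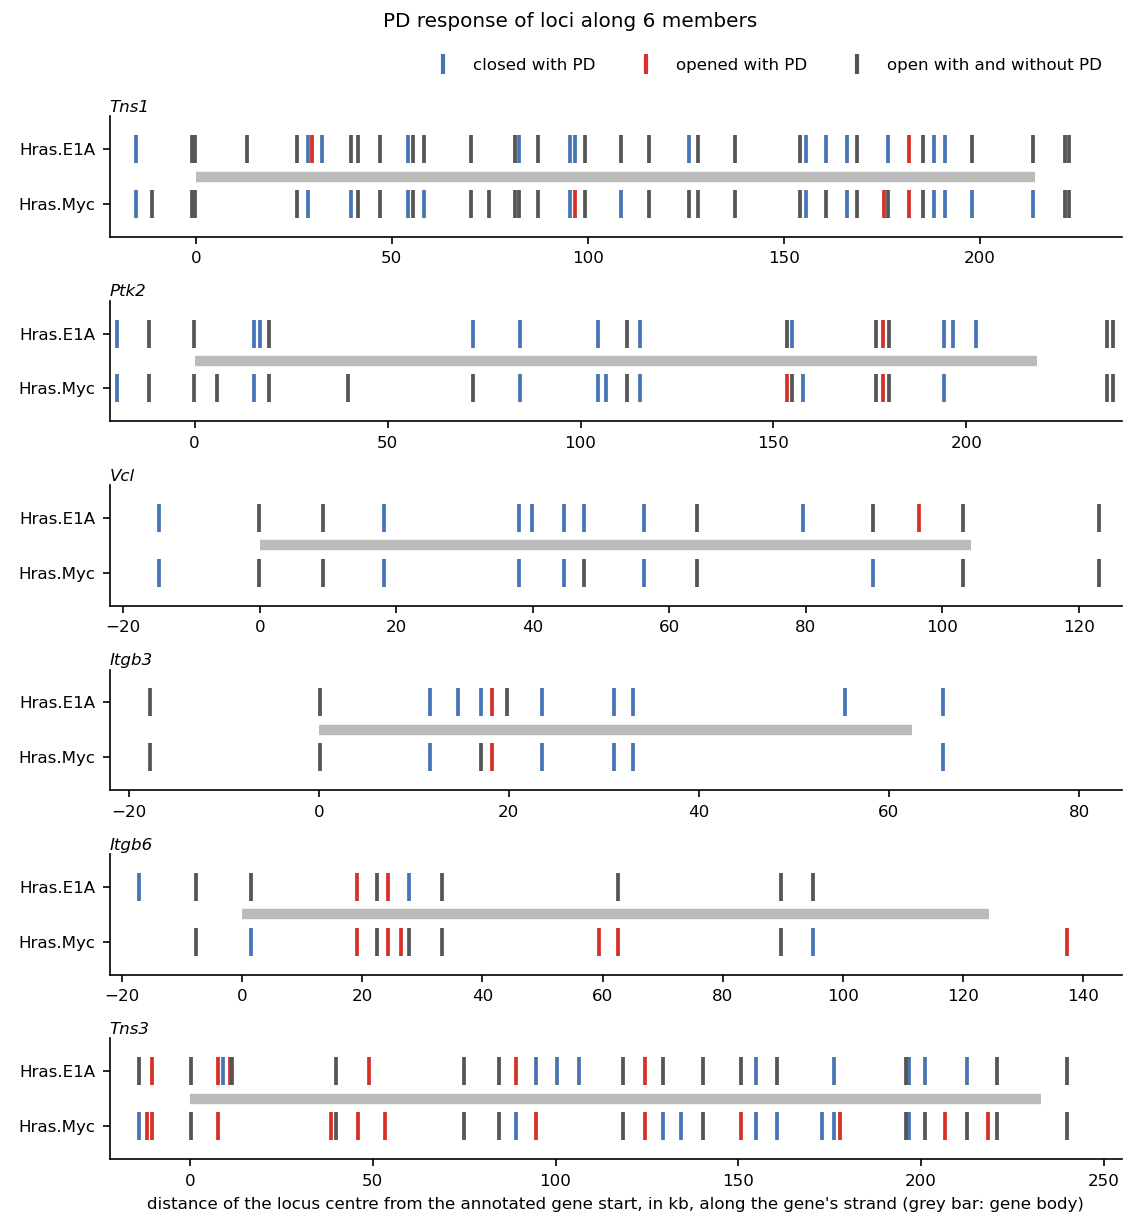
Loci of Tns1, Ptk2, Vcl, Itgb3, Itgb6 and Tns3 by the distance of their centre from the gene start in kb (horizontal axis) in Hras.E1A (upper row of each panel) and Hras.Myc (lower row), coloured by whether they closed with PD, opened with PD or were open with and without it. In Vcl 8 loci closed and 1 opened in Hras.E1A and 6 closed and 0 opened in Hras.Myc. At Itgb6 6 loci opened in Hras.Myc.

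Actn1, which encodes a non-muscle alpha-actinin that crosslinks actin, had 11 of 21 distal loci open in Hras.E1A+PD, against 17 in untreated Hras.E1A, and 9 in Hras.Myc+PD, against 13 in untreated Hras.Myc. The upstream locus printed above, with 2 AP-1 sites, had no peak with PD and ranked at percentiles 96.3 and 98.9 in the untreated Hras.E1A and Hras.Myc lists. The intron 2 locus with a TEAD match opened in both lines, at percentile 84.5 in Hras.E1A+PD and 40.9 in Hras.Myc+PD. Actn1 was also the member with the largest net change under TSA in Hras.E1A, with 5 distal loci closed and 0 opened. Of the other actin crosslinkers, Actn4 changed by -2 and 0 loci with PD and Flna by -1 in each line.

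The integrin alpha chains held between 8 loci, as at Itga4, and 26 at Itga9, against a median of 16 over all members. As a family they had 44% and 43.5% of their distal loci closed in Hras.E1A+PD and Hras.Myc+PD. In Hras.E1A+PD the net change ran between -4 at Itga11, a collagen receptor chain, and 0 at Itga3 and Itga4. In Hras.Myc+PD it ran between -4 at Itga2 and 1 at Itga8 and Itga9. The Itga8 intron 23 locus printed above, with 2 AP-1 sites, had no peak with PD and ranked at percentiles 87.5 and 84.7 in the untreated Hras.E1A and Hras.Myc lists. The Itga11 intron 2 locus, with TEAD matches, had no peak in either untreated Hras line and ranked at percentile 75.4 in Hras.E1A+PD and 75.6 in Hras.Myc+PD. Among the beta chains Itgb1 changed by -4 and -2, Itgb5 by -3 and 0 and Itgb8 by 0 and 1. Itgb6 had 9 of 21 distal loci open in Hras.E1A+PD, against 9 in untreated Hras.E1A, and 11 in Hras.Myc+PD, against 7 in untreated Hras.Myc, while its TSS had no peak in any Hras list. Of its 6 loci opened in Hras.Myc+PD, 4 had a peak in Hdac7SA.Mef2d.

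Among the linkers, Tln2 had 16 of 33 distal loci open in Hras.E1A+PD, against 17 in untreated Hras.E1A, and 11 in Hras.Myc+PD, against 10 in untreated Hras.Myc. Fermt2 had 4 of 13 open in Hras.E1A+PD, against 10 in untreated Hras.E1A, and 4 in Hras.Myc+PD, against 8 in untreated Hras.Myc, and no locus of it opened. Ilk, which encodes the pseudokinase that joins the parvins and kindlins to integrins, had 2 open distal loci in every Hras list. Parva changed by 0 and 1. The scaffold genes Pxn and Zyx each changed by -1 in Hras.E1A+PD and 0 in Hras.Myc+PD, and Lpp, with 14 distal loci closed and 8 opened in Hras.E1A+PD and 11 closed and 10 opened in Hras.Myc+PD, had more changed distal loci in Hras.E1A+PD than any other member.

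The lines shared many of the PD-responsive distal loci. Of 275 distal member loci open in both untreated Hras lines, 83 (30.2%, 24.8 to 36) were closed in both, beside 29.8% over all protein-coding genes. A further 32 (11.6%) were closed in Hras.E1A+PD only, beside 9.81%, and 26 (9.45%) in Hras.Myc+PD only, beside 11.5%, and 134 (48.7%) were kept in both, beside 48.8%. Of 179 distal loci open with PD in both lines, 27 (15.1%, 10.2 to 21.2) had opened in both, beside 11%, and of these 21 (77.8%, 57.7 to 91.4) had a peak in Hdac7SA.Mef2d, beside 63.3%. In lists of equal size, for which most Hdac7SA.Mef2d peaks were removed, 56 of 169 (33.1%, 26.1 to 40.8) had opened in both, beside 23.2%, and 7 of these 56 (12.5%) had a peak in Hdac7SA.Mef2d, beside 19%. Loci whose untreated peaks were cut also count as opened here, and the part of this in the difference was not tested. At the members 9 distal loci closed in a line and opened in the other, a count not made over all protein-coding genes. Of loci closed in Hras.E1A+PD, 106 of 158 (67.1%, 59.2 to 74.3) had a peak in Hdac7SA.Mef2d, against 170 of 196 kept loci (86.7%, 81.2 to 91.1). In Hras.Myc+PD these were 76 of 130 closed loci (58.5%, 49.5 to 67), against 158 of 175 kept (90.3%, 84.9 to 94.2). In neither line did the intervals of closed and kept loci overlap, and the shares over all protein-coding genes were 65.1% of closed and 87.7% of kept in Hras.E1A and 57.7% and 89.1% in Hras.Myc.

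Loci that changed with PD were weaker peaks than loci that were kept. In untreated Hras.E1A the 158 closed distal loci had a median score percentile of 27.9 and the 196 kept loci of 44.4. In untreated Hras.Myc the medians were 33.8 for closed and 40.4 for kept loci. Opened loci had medians of 25.4 in Hras.E1A+PD and 24.9 in Hras.Myc+PD. Over all protein-coding genes closed distal loci had medians of 41.0 and 41.1 in the untreated lines, so closed distal loci at the members ranked lower than elsewhere in the same lists, as did kept ones, whose medians over all protein-coding genes were 52.8 and 52.6. The part of peak strength in the closing was not tested. The loci of Vcl, Itgb3, Actn1, Src, Ptk2 and Itga8 printed above were chosen for their score in untreated Hras.E1A and are not typical in this respect.

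TSA changed fewer distal loci than PD at the members. In Hras.E1A+TSA 77 of 354 distal loci were closed (21.8%, 17.6 to 26.4), beside 17.9%, and 49 of 326 were opened (15%, 11.3 to 19.4), beside 15.9%. In Hras.Myc+TSA 47 of 305 were closed (15.4%, 11.5 to 20), beside 18.8%, and 53 of 311 opened (17%, 13 to 21.7), beside 22.9%. The opened share in Hras.Myc+TSA was the only one of these 4 whose interval did not reach its background. Promoter loci closed at 3 of 73 in Hras.E1A+TSA, beside 4.26%, and at 3 of 72 in Hras.Myc+TSA, beside 7.08%, and opened at 2 of 72, beside 4.02%, and at 2 of 71, beside 4.9%. Of the loci closed with PD, 113 of 158 in Hras.E1A+TSA and 101 of 130 in Hras.Myc+TSA kept a peak with TSA (71.5% and 77.7%), beside 76.4% and 74.7% over all protein-coding genes. At single members TSA gave a net change of -5 at Actn1 and -4 at Tln2 in Hras.E1A+TSA, and of -5 at Tns1 and 4 at Parva in Hras.Myc+TSA. The TSA lists came from 1 library each.

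Loci closed with PD at the members held AP-1 sites more often than loci that were kept. The motifs searched over the whole locus, on both strands and with overlaps between motifs allowed, were AP-1 TGACTCA, TEAD GGAATG, RUNX TGTGGT, ETS CCGGAAG and the CArG box of SRF. TGACTCA was found in 85 of 158 distal loci closed in Hras.E1A+PD (53.8%, 45.7 to 61.8), against 55 of 196 kept (28.1%, 21.9 to 34.9) and 9 of 56 opened (16.1%, 7.62 to 28.3). In Hras.Myc+PD it was found in 76 of 130 closed loci (58.5%, 49.5 to 67), against 60 of 175 kept (34.3%, 27.3 to 41.8) and 12 of 82 opened (14.6%, 7.8 to 24.2). The intervals of closed and kept loci did not overlap in either line. Within the central 100 bp of the locus the shares were 32.9% of closed and 12.2% of kept loci in Hras.E1A and 35.4% and 15.4% in Hras.Myc. The same order held over all protein-coding genes, with 56.8% of closed and 21.8% of kept distal loci in Hras.E1A and 54.9% and 29.3% in Hras.Myc. Opened distal loci held it there at 7.5% in Hras.E1A+PD and 9.69% in Hras.Myc+PD. The interval of opened member loci lay just above this background in Hras.E1A+PD and included it in Hras.Myc+PD. Of all distal loci 31% held the motif. Of the 83 loci closed in both lines, 53 held it. By member, 6 of 8 closed distal loci of Itgb3 in Hras.E1A+PD held an AP-1 site, 5 of 8 of Vcl, 6 of 7 of Actn1, 6 of 13 of Tns1 and 4 of 11 of Ptk2.

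The TEAD motif had the opposite order. It was found in 26 of 56 distal loci opened in Hras.E1A+PD (46.4%, 33 to 60.3), against 37 of 158 closed (23.4%, 17.1 to 30.8) and 55 of 196 kept (28.1%, 21.9 to 34.9). In Hras.Myc+PD it was found in 32 of 82 opened (39%, 28.4 to 50.4), against 23 of 130 closed (17.7%, 11.6 to 25.4) and 53 of 175 kept (30.3%, 23.6 to 37.7). Over all protein-coding genes 38.4% of opened loci held it in Hras.E1A+PD and 38.9% in Hras.Myc+PD, beside 30.1% of all distal loci. The intervals of opened and closed member loci did not overlap, while those of opened and kept loci did. With lists of equal size the shares were 40% (30.8 to 49.8) of opened and 24.7% (15.8 to 35.5) of closed loci in Hras.E1A and 35.2% (26.8 to 44.4) and 19.8% (12.4 to 29.2) in Hras.Myc, with overlapping intervals. Without the 20% weakest peaks the intervals of opened and closed loci overlapped in both lines as well. Within the central 100 bp they overlapped in Hras.Myc (8.72 to 25.6 and 4.86 to 15.6) but not in Hras.E1A (13 to 36.4 and 3.99 to 12.9). RUNX was found in 61 of 158 closed and 52 of 196 kept distal loci in Hras.E1A and in 44 of 130 closed and 45 of 175 kept in Hras.Myc, with overlapping intervals, and in 32.6% of all distal loci. ETS and CArG matches were rare, at 9 and 21 of the 636 distal member loci, beside 2.07% and 2.4% of all distal loci.

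**Figure D5:**
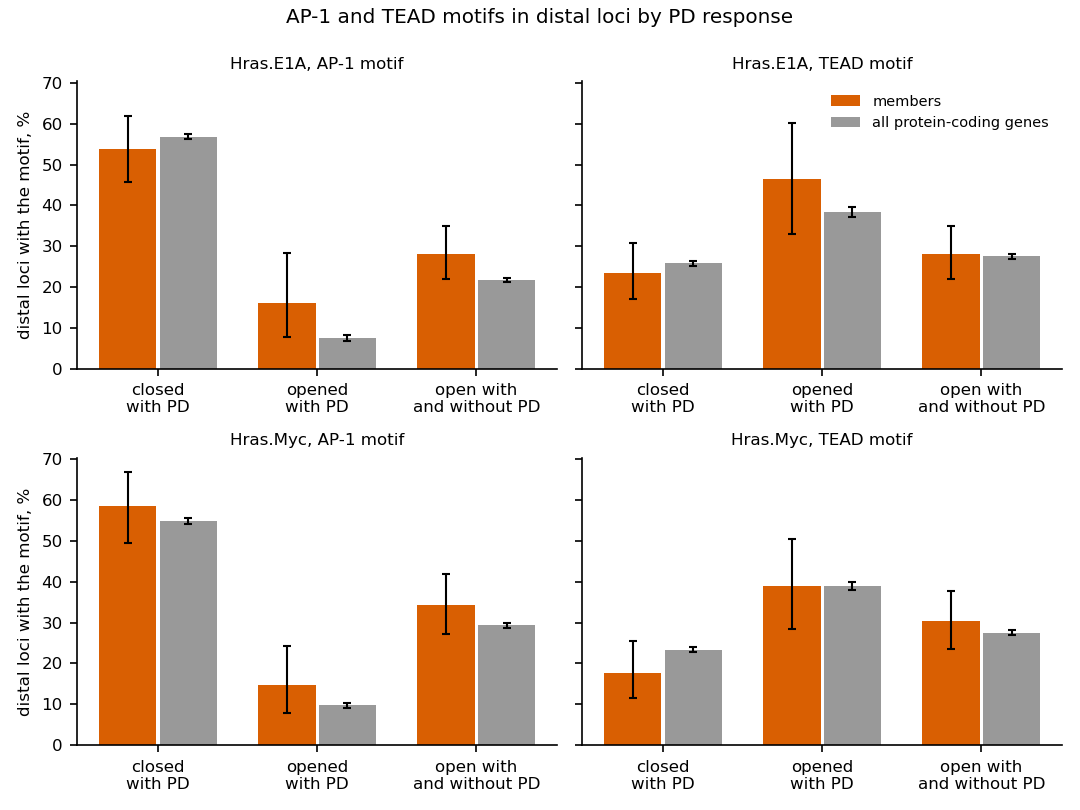
Percent of distal loci with the AP-1 motif (left column) and the TEAD motif (right column) among loci closed, opened or kept open with PD in Hras.E1A (upper row) and Hras.Myc (lower row), for the members and for all protein-coding genes, with exact binomial 95% intervals as error bars. Among member loci AP-1 was found in 53.8% and 58.5% of closed loci and in 16.1% and 14.6% of opened loci.

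Genes around the members were counted in the same way. The 29 other adhesion plaque genes, such as Lims1, Git1, Vasp and Palld, had 92 of 200 distal loci closed in Hras.E1A+PD (46%, 38.9 to 53.2) and 96 of 186 in Hras.Myc+PD (51.6%, 44.2 to 59). The 14 extracellular ligands, such as Fn1, Tnc and Col1a1, had 48 of 100 closed in Hras.E1A+PD (48%, 37.9 to 58.2) and 40 of 83 in Hras.Myc+PD (48.2%, 37.1 to 59.4). The 7 leukocyte and platelet integrins had few loci, with 13 of 25 distal loci closed in Hras.E1A+PD and 11 of 21 in Hras.Myc+PD. All of these intervals included the background of 44.6% in Hras.E1A or 46.1% in Hras.Myc, for ligands, receptors and plaque genes alike.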

How the data were processed

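Alignment to mm10 used Bowtie2 2.4.5 and peak calling MACS2 2.2.7.1, according to the submitters' processing notes, and the study's methods add a step that recovers low-scoring peaks by sharing peaks between samples. The authors deposited 1 list per group, with 400 bp peaks and a score whose lowest value in every list was 1.2. The scale of the score and the way replicates were pooled are not given in the sources used here. From the deposited score only ranks within each list were taken. Because peaks were shared between samples, the lists are not independent.

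Peaks overlapping by 1 bp or more across the 7 lists were merged, and a locus was open in a list that had a peak on it. Genes, exons and TSS were those of the GENCODE M21 basic annotation of GRCm38, and sequences came from the RefSeq GRCm38 genome, whose chromosomes no peak overran. Coordinates count from 1. The motifs were searched as letters in each locus. With 1 list per group no test was run and no p-value is given. The 95% intervals of shares are exact (Clopper-Pearson) and reflect counting error alone. Depth is unknown, and absence of a peak does not mean absence of reads. The scripts were tested on simulated lists with known closures. Python 3.11.15, numpy 2.4.6, pandas 2.3.3 and scipy 1.17.1 were used.

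The members, families, wider lists and motifs were chosen with earlier results of these data known. The members described singly were the 6 with most closed minus opened loci in each line, the 6 with most opened minus closed loci in Hras.Myc (none had a net gain in Hras.E1A), those with a changed or an unlisted promoter of their own, and the 4 with most loci particular to Hdac7SA.Mef2d. The rest are given in counts or briefly by family, and Itga2, Itga4, Itga6 and Fermt2 were added after their values were seen. The 10 loci whose sequence is shown were ranked by score in untreated Hras.E1A if closed and in Hras.E1A+PD if opened. The alternatives were other windows, overlaps, promoter distances, assignments, list lengths and motif settings. Libraries could not be compared singly.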

Additional observations from a re-analysis of the deposited data

Results flagged for a closer look

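Tns3 had net changes in opposite directions in the 2 Hras lines, with -3 loci opened minus closed in Hras.E1A+PD against untreated Hras.E1A and 3 in Hras.Myc+PD against untreated Hras.Myc. The difference was not tested, since each list pools its replicates. Both lines had 9 closed distal loci at Tns3, and the opened distal loci numbered 6 in Hras.E1A+PD and 12 in Hras.Myc+PD. With lists of equal size the net change was 1 in Hras.E1A+PD and 7 in Hras.Myc+PD, so the opposite direction was lost and the order of the lines was the same.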

How the results depend on the processing

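Of 135 alternative values for the 12 shares and the count of named members, 122 stayed within the 95% interval of the reported share or within 1.5 times the count, and 13 moved. With the 20% lowest-scoring peaks removed from each list, the closed distal share was 50.6% in Hras.E1A+PD and 49.8% in Hras.Myc+PD, the opened distal share 31.8% in Hras.E1A+PD, the distal share closed with TSA 20.3% in Hras.Myc+TSA, and the share of distal loci particular to Hdac7SA.Mef2d 48.4%. These values without the weakest peaks were counted for the members only. With lists of equal size, the opened distal share was 48.7% in Hras.E1A+PD and 47.5% in Hras.Myc+PD, beside 39.2% and 40.3% over all protein-coding genes. The promoter share closed with PD was then 0% in Hras.Myc+PD (0 of 59 loci), beside 4.67%. Counted for the members only, the distal share closed with TSA was 22.1% in Hras.Myc+TSA and the AP-1 share of closed loci 65.4% in Hras.E1A+PD. With the AP-1 motif in the central 100 bp only, that share was 32.9% in Hras.E1A+PD and 35.4% in Hras.Myc+PD, a shorter stretch by construction. Named members with a net change of 3 loci or more numbered 19 over both lines, of 40 member and line pairs, and 12 with lists of equal size. Of 360 net changes at single named members, 7 reversed, all with lists of equal size, at 4 for Actn1, 3 for Lpp, 1 for Src, 6 for Tns1 and 1 for Tns3 in Hras.E1A+PD and at 1 for Ptk2 and 2 for Tns1 in Hras.Myc+PD. In both lines the AP-1 interval of closed loci lay above that of kept loci in all 5 motif settings. Limits are the pooled lists, the unknown depth, the 1 library behind each TSA list and a score of unknown scale on which equal-size lists rest. No paired analysis was possible because the replicates sharing a number are pooled in 1 peak list per group. For the same reason no library could be left out.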
